A study of Mus musculus with 12 samples.

Results

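Of 17186 genes measured in mouse hypothalamus, 7 are described here that handle alcohols and the aldehydes made from them: Adh1, Adh7 and Cyp2e1, which oxidize alcohols, Adh5 and Esd, which clear formaldehyde, and Aldh2 and Aldh1a1, which oxidize aldehydes. The members were chosen by gene name, because aspartame (ASP) releases methanol when it is digested, and each was read from the probe set that the array annotation assigns to it. All 7 passed the filter on low signal, under which a gene had to reach a log2 signal of 6 on 3 or more arrays. The 12 Affymetrix Mouse Gene 1.0 ST arrays fell into 4 groups of 3, ASP+CGP, ASP, CGP and CON. ASP+CGP and ASP mice were exposed to aspartame, 46 mg/kg per the labels, from conception to the end of the study. It reached them through the dam until weaning and then in their own drinking water. ASP+CGP and CGP mice were exposed through the dam until weaning to 5 mg/kg of CGP 39551, a competitive antagonist of the NMDA receptor, and CON mice received neither. All were male C57Bl/6J mice of 21 weeks that had gone through behavioral tests, had fasted overnight and were killed under xylazine and ketamine. Mice of a group contributed their RNA to 1 common pool, and its 3 arrays were repeats of that pool. The errors and p-values below therefore measure the spread between arrays, and the spread between animals is not in them.

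Alcohol dehydrogenases pass the hydrogen of an alcohol to NAD+, and aldehyde dehydrogenases turn the resulting aldehyde into an acid. In rodents methanol is oxidized to formaldehyde largely by catalase, with alcohol dehydrogenase and the cytochrome P450 CYP2E1 as other routes for alcohols. Formaldehyde joins glutathione without an enzyme, and the product is oxidized by ADH5 and split by esterase D into glutathione and formate, which then enters folate metabolism. In the brain, ethanol oxidation is known mainly for catalase, while ADH1 and CYP2E1 are best known from the liver and, at lower levels, from other tissues outside the brain. ADH1 and ALDH1A1 also act on retinol and retinaldehyde.

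Promoter sequences are shown first for the pair of members with large differences between pools, Adh1 and Cyp2e1, and then for the pair of formaldehyde genes whose signal varied little, Adh5 and Esd. They are the 250 bases before the start site, on the plus strand, from the RefSeq promoter table of build GRCm38.p6, in which 6 of the 7 members had an entry. The windows are chr3:138277335-138277584 for Adh1, chr7:140763569-140763818 for Cyp2e1, chr3:138442843-138443092 for the second start site of Adh5 and chr14:74732047-74732296 for Esd. Capitals mark matches, on either strand, to 6 motifs. A TATA box was searched as TATAAA, the C/EBP-type motif was searched as TTGCNNAA, the SF-1-type motif was AAGGTCA, the E-box was CACGTG and the GC box was GGGCGG. The remaining one was the CCAAT box, by the letters of its name, and it could overlap any other.
Adh1 promoter: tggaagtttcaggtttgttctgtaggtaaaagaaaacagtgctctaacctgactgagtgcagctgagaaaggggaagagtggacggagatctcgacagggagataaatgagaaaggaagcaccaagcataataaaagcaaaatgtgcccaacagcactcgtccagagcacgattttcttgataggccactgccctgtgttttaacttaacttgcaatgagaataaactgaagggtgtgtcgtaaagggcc
Cyp2e1 promoter: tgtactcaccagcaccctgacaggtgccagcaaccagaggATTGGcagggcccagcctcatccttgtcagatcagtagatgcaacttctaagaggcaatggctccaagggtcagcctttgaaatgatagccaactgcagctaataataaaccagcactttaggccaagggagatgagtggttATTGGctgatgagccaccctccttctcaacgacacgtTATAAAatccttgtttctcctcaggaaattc
Adh5 promoter, second start site: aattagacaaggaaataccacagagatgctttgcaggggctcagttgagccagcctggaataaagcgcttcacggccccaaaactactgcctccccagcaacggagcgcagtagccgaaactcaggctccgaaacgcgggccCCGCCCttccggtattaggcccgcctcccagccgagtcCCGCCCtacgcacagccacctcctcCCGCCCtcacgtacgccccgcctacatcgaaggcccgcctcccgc
Esd promoter: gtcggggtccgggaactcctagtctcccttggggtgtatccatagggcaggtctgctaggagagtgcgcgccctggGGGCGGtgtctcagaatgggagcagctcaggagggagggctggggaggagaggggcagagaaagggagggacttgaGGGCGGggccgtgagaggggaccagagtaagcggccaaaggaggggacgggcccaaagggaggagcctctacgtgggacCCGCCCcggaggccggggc

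These 4 windows differed in composition and in the matches they held. The Adh1 window had 44.8% G and C, 5 CpG dinucleotides and no match to the 6 motifs. The Cyp2e1 window had 48.8% G and C, 2 CpG dinucleotides, a TATA box letter match that began 31 bases before the start site (-31) and CCAAT letters on the reverse strand at -210 and -68. The Adh5 window had 63.6% G and C, 21 CpG dinucleotides and 3 GC box matches, at -108, -70 and -45. The Esd window had 68.4% G and C, 13 CpG dinucleotides and 3 GC box matches, at -174, -98 and -19. Of all 32851 windows in the table, 12.4% held the TATA box letters, 33.8% those of the CCAAT box, 9.56% the C/EBP-type, 4.08% the SF-1-type, 6.02% the E-box and 32.7% the GC box letters, and the median window had 52.4% G and C and 6 CpG dinucleotides. The first start site of Adh5 had 45.2% G and C, 2 CpG dinucleotides, a TATA box match at -207 and no GC box match, closer in composition to the Adh1 and Cyp2e1 windows, so the contrast holds for the second Adh5 start site. These matches are a description of letters and do not show that a factor binds.

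Adh1 and Cyp2e1 rose in the ASP pool against CON, and they were the 2 of 7 members that did. A gene was called when its Benjamini-Hochberg adjusted p from limma was under 0.05 and its fold change over 1.4. Over all 17186 genes, 1.05% were called in ASP vs CON, 1.02% as higher. The median difference of the 7 members was 0.05 on the log2 scale, beside -0.013 for all genes. The arrays of the ASP and CON pools did not overlap for 3 members, Adh1, Cyp2e1 and Aldh2, beside 23.9% of all genes.

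Adh1 is the class I alcohol dehydrogenase, the main ethanol-oxidizing enzyme of mouse liver. Its probe set (10496438) read 6.97, 6.83 and 6.80 in ASP+CGP, 10.38, 10.40 and 10.43 in ASP, 6.99, 7.10 and 7.20 in CGP and 7.13, 7.02 and 7.10 in CON, in log2 signal. The 3 ASP arrays stood far above the other 9, which lay together between 6.80 and 7.20. The difference of ASP from CON was 3.32 ± 0.06 (SE of the fit) on the log2 scale, or 9.97-fold (adjusted p = 5.1e-14, limma). It was the 12th largest of all genes in that comparison, counted from the top. In pooled tissue a larger share of cells that express a gene and more of its RNA per cell cannot be told apart.

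Cyp2e1 encodes the ethanol-inducible cytochrome P450. Its probe set (10558673) read 6.15, 6.05 and 6.20 in ASP+CGP, 9.94, 9.81 and 9.83 in ASP, 6.22, 6.39 and 6.31 in CGP and 6.04, 6.17 and 5.99 in CON. As with Adh1, all 3 ASP arrays lay above every other array, and 1 CON array fell under the signal floor of 6. ASP exceeded CON by 3.79 ± 0.06 on the log2 scale, or 13.9-fold (adjusted p = 1.9e-14, limma), the 8th largest difference of all genes. The fold change of a gene near the floor may be understated, because background can form part of the CON signal. How much of it did so here was not measured.

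The same 2 genes were lower in ASP+CGP than in ASP. Adh1 fell by 3.53 on the log2 scale (SE 0.06, adjusted p = 1.9e-14, limma) and Cyp2e1 fell by 3.73 (SE 0.06, adjusted p = 1.9e-14). Of all genes 1.27% were called in this comparison, 1.24% as lower. The difference of ASP+CGP from CGP minus the difference of ASP from CON is called the interaction. It was -3.54 ± 0.08 for Adh1 (adjusted p = 1.9e-12, limma) and -3.97 ± 0.09 for Cyp2e1 (adjusted p = 1.0e-12). In the interaction 1.5% of all genes were called, 1.35% as lower. These comparisons share the ASP arrays, and each rests on 1 pool a group.

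Outside the ASP pool, the levels of both genes lay close together. No member was called in ASP+CGP vs CON, in CGP vs CON or in ASP+CGP vs CGP. Of all genes 0.18%, 0.111% and 0.163% were called there, in that order. The absence of called members is thus near the background and says little about them. For Adh1 the ASP+CGP arrays read below both the CON arrays, by 0.22 ± 0.06 (adjusted p = 0.094, limma), and the CGP arrays, by 0.23 ± 0.06 (adjusted p = 0.098), without overlap. CGP differed from CON in Adh1 by 0.01 ± 0.06 (95% interval of the fit -0.12 to 0.14). For Cyp2e1 the CGP arrays read above the CON arrays without overlap, by 0.24 ± 0.06 (adjusted p = 0.14, limma), and the ASP+CGP arrays read below the CGP arrays without overlap, by 0.17 ± 0.06 (adjusted p = 0.23). ASP+CGP and CON overlapped in Cyp2e1, with a difference of 0.06 ± 0.06. Arrays without overlap were found for 17.3% of all genes in ASP+CGP vs CON, 19.4% in CGP vs CON and 22.5% in ASP+CGP vs CGP.

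**Figure D1:**
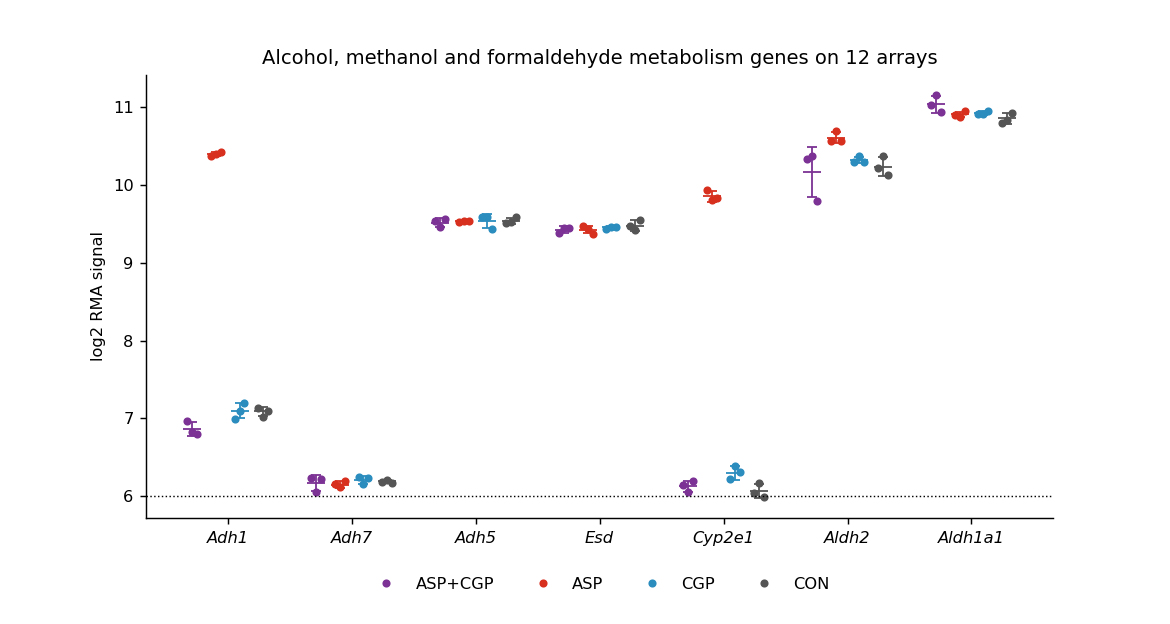
Log2 RMA signal (vertical axis) of the 7 members on each array, for the ASP+CGP, ASP, CGP and CON pools from left to right. Points are arrays, bars the mean ± SD of 3 arrays and the dotted line the signal floor of 6; the ASP arrays of Adh1 and Cyp2e1 lie apart from their other 9 arrays.

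Adh7 is the class IV enzyme, known from stomach and other epithelia, and it showed no difference of that size. Its probe set (10496425) read between 6.05 and 6.25 on the 12 arrays, just over the floor, and ASP vs CON gave -0.03 (95% interval -0.15 to 0.08). At this signal a change in a gene with little RNA may not be detectable.

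Adh5 and Esd, which carry out the glutathione route of formaldehyde, read well above the floor in every pool. Adh5, the class III enzyme that oxidizes the formaldehyde-glutathione adduct (probe set 10496475), lay between 9.44 and 9.59 on all 12 arrays, a range of levels in which the groups overlapped. The 95% interval of its ASP vs CON difference was -0.11 to 0.10. Esd, which encodes esterase D (probe set 10416411), lay between 9.37 and 9.55, and its ASP vs CON difference was -0.05 ± 0.05 (95% interval -0.15 to 0.05). A second Esd probe set (10417273) lay between 8.79 and 8.95 and gave -0.08 ± 0.04 for ASP vs CON. The ASP vs CON intervals of Adh5 and of the first Esd probe set did not reach the 1.4-fold threshold.

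Aldh2, the mitochondrial enzyme that oxidizes acetaldehyde and also formaldehyde, showed smaller differences. Its probe set (10533345) read 10.34, 10.37 and 9.80 in ASP+CGP, 10.57, 10.70 and 10.57 in ASP, 10.30, 10.37 and 10.30 in CGP and 10.22, 10.37 and 10.13 in CON. The ASP arrays were the highest 3, and the third ASP+CGP array was the lowest by a wide margin. ASP exceeded CON by 0.37 ± 0.12, or 1.29-fold, which did not pass the test (adjusted p = 0.10, limma; 95% interval 0.12 to 0.62). ASP+CGP was below ASP by 0.44 ± 0.12 (adjusted p = 0.035, limma), past the p threshold but at 1.36-fold under the fold threshold, so it was not called. With Aldh2, 3 members passed the adjusted p alone in ASP+CGP vs ASP, where 6.92% of all genes did, and 3 had arrays without overlap, where 26.9% of all genes did. Without the third ASP+CGP array the Aldh2 difference was -0.26 ± 0.07, and without the first or the second it was -0.52 and -0.54, both past the fold threshold.

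The third ASP+CGP and the third CON array stood apart over all genes. The SD of their deviations from the group mean was 0.0996 and 0.0903, against 0.0490 to 0.0701 for the other 10 arrays. In a fit without both, ASP exceeded CON in Aldh2 by 0.32 ± 0.06 (adjusted p = 0.0066, limma), still under 1.4-fold. In that fit ASP+CGP exceeded CON in Aldh1a1 by 0.28 ± 0.05 (adjusted p = 0.012, limma), also under 1.4-fold. The arrays left out were picked for deviating most in these same data, so smaller errors follow in part from the choice. In Aldh1a1 they were the lowest ASP+CGP and the highest CON array, so leaving them out widens the difference. The p-values of this fit are thus no support for a difference in either gene.

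Aldh1a1, the cytosolic enzyme that makes retinoic acid from retinaldehyde and marks a set of midbrain dopamine neurons, read high in every pool. Its probe set (10461979) read 11.03, 11.16 and 10.94 in ASP+CGP, 10.90, 10.88 and 10.95 in ASP, 10.92, 10.91 and 10.96 in CGP and 10.80, 10.84 and 10.93 in CON. The ASP+CGP arrays all exceeded the CON arrays, narrowly, by 0.19 ± 0.05 (adjusted p = 0.12, limma), and ASP exceeded CON by 0.05 ± 0.05. Its close paralog Aldh1a7, whose transcripts can share probes with it, gave 0.18 ± 0.06 for ASP+CGP vs CON (adjusted p = 0.20) and 0.16 ± 0.06 for ASP vs CON (adjusted p = 0.22). Among 8 markers of dopamine neurons, 1, Th, was called in ASP vs CON and 0 in ASP+CGP vs CON, beside 1.05% and 0.18% of all genes. The count of 0 is thus near the background. Th is also 1 of the 4 called markers of the adrenal medulla and was counted in both lists.

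**Figure D2:**
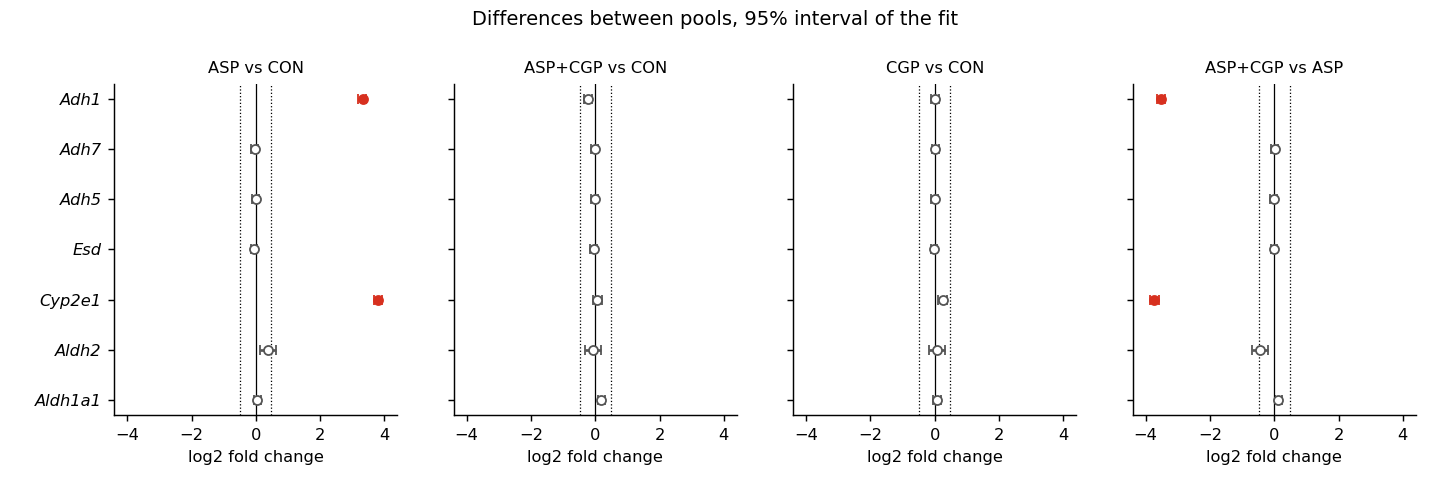
Log2 fold change (horizontal axis) of the 7 members in 4 comparisons, with the 95% interval of the fit. Filled red points passed the adjusted p and the fold threshold, which dotted lines mark; only Adh1 and Cyp2e1 did, in ASP vs CON and in ASP+CGP vs ASP.

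The alcohol dehydrogenase genes lie side by side on chromosome 3, in the order Adh7, Adh1, Adh6a, Adh6b, Adh6-ps1, Adh4 and Adh5 in GRCm38.p6, with noncoding genes between some of them. Adh1 was called among the 6 that were measured. Its neighbor Adh6b gave 0.09 ± 0.09 for ASP vs CON at a mean signal under the floor in every pool. Adh4, a class II enzyme of the liver, read 6.38, 6.13 and 6.20 in ASP and 6.42, 6.41 and 6.40 in CON, a difference of -0.17 ± 0.07 (adjusted p = 0.22, limma). Adh6-ps1, a pseudogene added because it lies in the cluster, gave -0.08 ± 0.06. Adh6a was not measured by a probe set of its own that passed the filter.

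**Figure D3:**
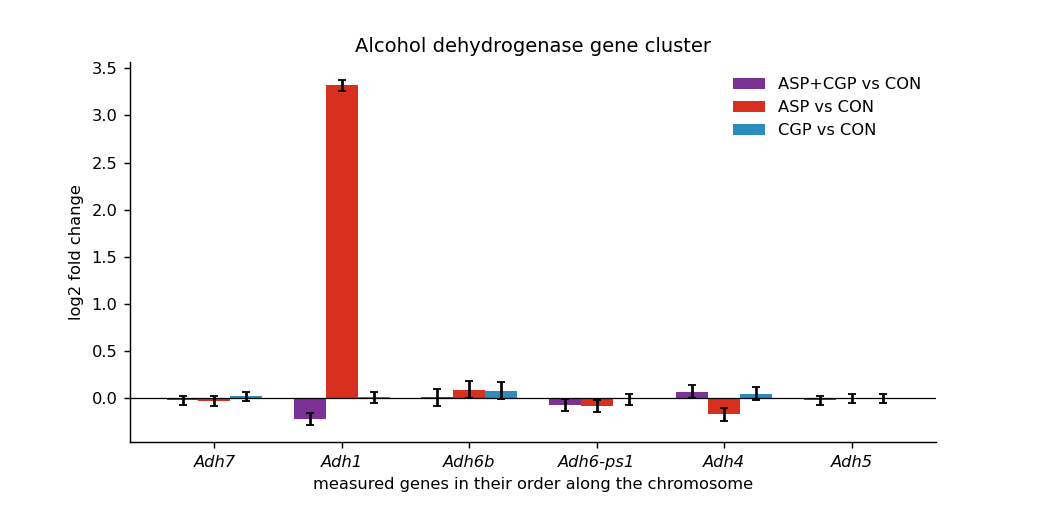
Log2 fold change (vertical axis) of 6 measured genes of the alcohol dehydrogenase cluster in chromosome order, for ASP+CGP vs CON, ASP vs CON and CGP vs CON from left to right. Error bars are the SE of the fit; the bar of 3.32 for Adh1 in ASP vs CON is the one that was called.

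In 6 lists of alcohol, aldehyde, glutathione, formate and retinoid metabolism, 62 of 70 listed genes were measured, and 55 of these were not members. None of the 55 was called in ASP vs CON, in either direction, with differences from -0.28 to 0.44 and a median of 0.02. With 1.05% of all genes called in that comparison, a count of 0 in 55 is near the background and says little about the pathway. With the members, the counts were 1 of 6 in the alcohol dehydrogenase family (Adh1) and 0 of 19 aldehyde dehydrogenases. They were 1 of 7 genes listed for methanol and ethanol oxidation outside that family (Cyp2e1) and 0 of 9 genes listed around the glutathione route. They were 0 of 13 genes of formate and folate metabolism and 1 of 16 retinoid genes (Adh1 again). The list of methanol and ethanol oxidation also held acetyl-CoA synthetases and a peroxisomal import receptor, which do not oxidize these alcohols. The glutathione list held, beyond Adh5 and Esd, genes of glutathione synthesis and of other reactions with glutathione. In ASP+CGP vs CON and in CGP vs CON none of the 62 was called, where 0.18% and 0.111% of all genes were, so these counts too are near the background.

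Cat, which encodes catalase, had the largest difference of the 55 in ASP vs CON. It read 10.72, 10.71 and 10.38 in ASP+CGP, 10.96, 11.03 and 10.99 in ASP, 10.66, 10.60 and 10.67 in CGP and 10.57, 10.61 and 10.50 in CON. All 3 ASP arrays were above all other arrays, and again the third ASP+CGP array was the lowest. ASP exceeded CON by 0.44 ± 0.07, or 1.35-fold (adjusted p = 0.0029, limma), and ASP+CGP was below ASP by 0.39 ± 0.07 (adjusted p = 0.0052). Both passed the p threshold and neither the fold threshold. The interaction of ASP and CGP in Cat was -0.47 ± 0.11 (adjusted p = 0.021, limma), also just under the fold threshold, and 5 of 22 alternatives, each leaving out 1 array, took it past (-0.49 to -0.53), while leaving out any 1 array gave -0.53 to -0.36. In ASP vs CON, 4.08% of all genes passed the adjusted p alone. Akr1a1, an aldehyde reductase, read between 12.59 and 12.75 on all 12 arrays and differed by 0.02 ± 0.04 between ASP and CON.

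Rbp4, the carrier of retinol in blood, was the 1 gene of the 55 called in any of the 6 comparisons, in ASP+CGP vs ASP. With 1.27% of all genes called there, a count of 1 in 55 is near the background. Rbp4 read 8.78, 8.69 and 8.77 in ASP+CGP, 9.20, 9.26 and 9.26 in ASP, 8.93, 8.98 and 8.94 in CGP and 8.87, 8.97 and 9.13 in CON. The ASP arrays were the highest and the ASP+CGP arrays the lowest, with CGP and CON between. Rbp4 fell in ASP+CGP against ASP by 0.49 on the log2 scale (SE 0.06, adjusted p = 6.8e-05, limma), or 1.41-fold. It lay at the edge of the fold threshold, and the call was lost at a difference of -0.48 without the second or the third ASP array or with further quantile normalization and at -0.46 without the second ASP+CGP array. Rbp4 exceeded CON in ASP by 0.25 ± 0.06 (adjusted p = 0.024) and was below CON in ASP+CGP by 0.24 ± 0.06 (adjusted p = 0.049), both under the fold threshold. Its interaction of ASP and CGP, -0.45 ± 0.08 (adjusted p = 0.0049), was called without the third CON array (-0.52), and also when the third array of ASP+CGP was left out beside it (-0.53).

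**Figure D4:**
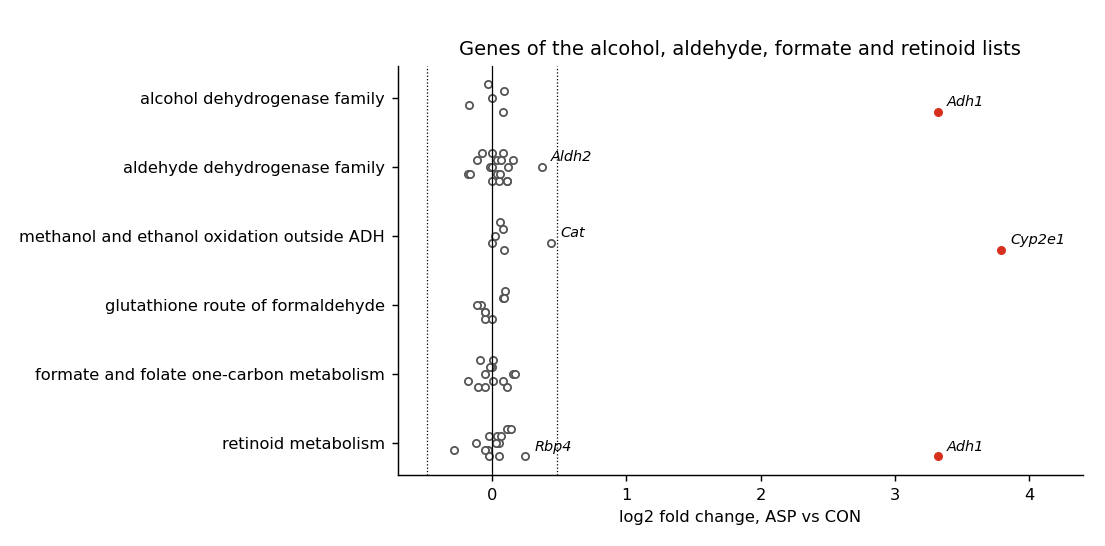
Log2 fold change in ASP vs CON (horizontal axis) of every measured gene in 6 lists of alcohol, aldehyde, formate and retinoid metabolism, 1 point per gene. Filled red points were called; apart from Adh1 and Cyp2e1 all points lie within the dotted lines of the 1.4-fold threshold.

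**Figure D5:**
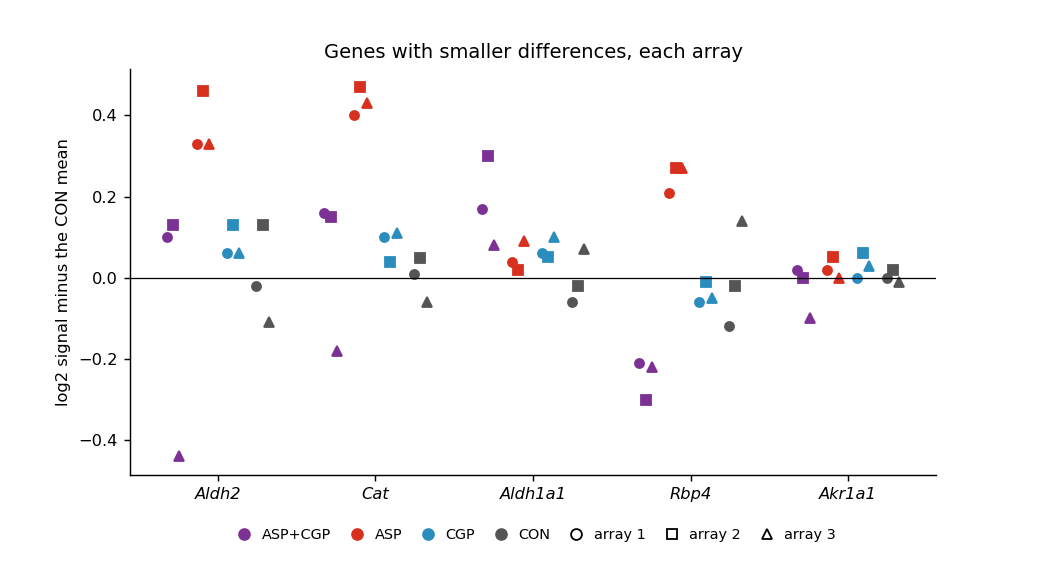
Log2 signal minus the mean of the CON arrays (vertical axis) on each array for Aldh2, Cat, Aldh1a1, Rbp4 and Akr1a1, with the ASP+CGP, ASP, CGP and CON pools from left to right. Marker shapes give the array number; the third ASP+CGP array, a triangle, is the lowest point for Aldh2 and Cat.

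Genes with the profile most like those of Adh1 and Cyp2e1 were sought by Pearson's r over the 12 arrays among 82 genes whose group means spanned at least 1 on the log2 scale. Closest to Adh1 were Scarb1, a receptor for high-density lipoprotein (r = 0.9991), Cox8b, a subunit of cytochrome c oxidase (0.9982), Mgarp, a mitochondrial protein (0.9980), Cpa1, a pancreatic carboxypeptidase (0.9973) and Agtr1a, an angiotensin II receptor (0.9973). Closest to Cyp2e1 were Star, which moves cholesterol into mitochondria (0.9982), Cidec, a lipid droplet protein (0.9980), Hsd3b1, an enzyme of steroid synthesis (0.9974), Mgarp (0.9973) and Car3, a carbonic anhydrase abundant in fat and muscle (0.9973). Mgarp and Hsd3b1 had means under the floor in every pool but ASP, so they entered the search through their ASP arrays alone. These values describe 1 shared feature, since for 79 of the 82 genes every ASP array exceeded the other 9 arrays. Adh1 and Cyp2e1 had r = 0.996 with each other over the 12 arrays and 0.203 over the 9 arrays outside ASP, where 3 pools with 3 arrays each gave the points.

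Markers of tissues outside the brain moved with Adh1 and Cyp2e1, and their part in these results was not tested. In ASP vs CON, 11 of 12 markers of the adrenal cortex, 4 of 8 of the adrenal medulla (Pnmt, Dbh, Th and Slc18a1), 11 of 14 of white fat, 4 of 7 of brown fat, 11 of 12 of the exocrine pancreas, 2 of 12 of the liver and 7 of 10 of the pituitary were called, each as higher. Of all genes 1.02% were called as higher there. Summed over a list, in log2 signal, the adrenal cortex markers spanned 14.36 to 14.39 in ASP and 10.86 to 10.92 in CON, the white fat markers 13.31 to 13.36 in ASP and 11.75 to 11.80 in CON, and the exocrine pancreas markers 12.23 to 12.25 in ASP and 10.39 to 10.56 in CON. The markers with CON means under the floor were Hsd3b1 and Mc2r of the adrenal cortex, Adipoq, Fabp4, Lep and Cd36 of white fat, Elovl3 of brown fat and Cpb1, Pnliprp1, Zg16 and Gp2 of the exocrine pancreas. All of them were also under it in ASP+CGP and, but for Gp2, in CGP, while none was in ASP. They could thus pass the filter through their ASP arrays alone, so their share of the counts in ASP vs CON is in part set by the filter. Cyp11b1, which makes corticosterone, read 12.44, 12.39 and 12.39 in ASP and 6.33, 6.29 and 6.46 in CON. In ASP+CGP vs CON 0 of the adrenal cortex, adrenal medulla, white fat, brown fat, pancreas and liver markers were called. With 0.18% of all genes called there, these counts are near the background. The adrenal cortex markers summed to between 10.85 and 10.88 on the ASP+CGP arrays. The liver markers summed to between 11.01 and 11.09 in ASP and 10.63 and 10.77 in CON. The pituitary list moved otherwise, with 6 of 10 markers (Gh, Prl, Pomc, Lhb, Fshb and Cga) called as lower in ASP+CGP vs CON. In CGP vs CON 7 of 10, these 6 and Ghrhr, were called as higher, the same 7 as in ASP vs CON. Of all genes 0.111% were called in CGP vs CON, in either direction. The summed signal of the pituitary list spanned 12.19 to 12.37 in ASP+CGP, 15.19 to 15.20 in ASP, 15.02 to 15.05 in CGP and 14.17 to 14.24 in CON. Of 14 listed markers of hypothalamic neurons 13 were measured, and all 13 had means over the floor in every pool, which the filter on low signal fixes in part. Agrp, the one left out, had no probe set of its own that passed the filter. Hcrt, the orexin gene, read between 12.46 and 12.68 on the 12 arrays. The 13 markers differed between pools too. In ASP vs CON 8 of the 13 passed the adjusted p alone, beside 4.08% of all genes. Npy and Nr5a1, which is also on the adrenal cortex list, were called as higher and Avp as lower (-0.50 ± 0.04). In ASP+CGP vs CON 5 of the 13 passed the adjusted p, beside 300 of 17186 genes, and in CGP vs CON 4, beside 108. Their median difference from CON was -0.15 in ASP, -0.18 in ASP+CGP and -0.2 in CGP. Avp was called as lower in ASP+CGP too (-0.55 ± 0.04). In CGP it was below CON by 0.35 ± 0.04 (adjusted p = 0.0012, limma), under the fold threshold. Hcrt read below CON without overlap in ASP, by 0.16 ± 0.04 (adjusted p = 0.030, limma), and in ASP+CGP, by 0.18 ± 0.04 (adjusted p = 0.036). Both were under the fold threshold. In CGP it read below CON without overlap by 0.11 ± 0.04 (adjusted p = 0.27).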

How the data were processed

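RNA of hypothalamus pools was measured on 12 arrays, grouped by the sample labels. The deposited values are log2 signals, which the authors made with RMA in Partek (background correction, quantile normalization over arrays, median polish), so a change shared by most genes would be removed. The genome build is not given in the sources used here, so promoter coordinates are those of RefSeq GRCm38.p6.

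Of 29149 probe sets, 19019 had 1 gene symbol, 1197 several and 8933 none in the platform annotation; the last 2 kinds named no gene. A gene was kept if a probe set of its own reached 6 on 3 or more arrays, and its brightest probe set stood for it. Differences were fitted with limma 3.58.1 in R 4.3.3 on all 12 arrays, with 8 residual and 5.43 prior degrees of freedom. Benjamini-Hochberg adjustment was over all 17186 genes within a comparison. Members, gene lists and tests were chosen with earlier results of these data known. Named genes were all members, called genes of the pathway lists, Cat, Akr1a1, Adh4, Adh6a, Adh6b and Aldh1a7, the 5 genes most like each called member, and marker genes by level or change; Adh6-ps1, the markers named for lying under the floor and the other called markers named were chosen after their values were seen. Marker lists of astrocytes, endothelium, meninges, choroid plexus and dopamine neurons were counted too. In ASP vs CON 0 of 8, 0 of 8, 0 of 12, 2 of 8 and 1 of 8 of their measured genes were called, in that order, beside 1.05% of all genes. The counts of 0 are near the background. At adjusted p alone the counts in ASP vs CON were 0, 1, 5, 2 and 1 in the same order, beside 4.08% of all genes. In ASP+CGP vs CON they were 0, 0, 8, 2 and 0, beside 300 of 17186 genes. In ASP+CGP vs CON, 3 meninges markers (Prg4, Fmod and Slc6a13) were called as lower and 1 of the choroid plexus (Ttr) as higher, and in ASP+CGP vs ASP 2 meninges markers (Dcn and Ogn), Aqp1, Th and Kdr as lower. Of all genes 0.18% were called in ASP+CGP vs CON and 1.27% in ASP+CGP vs ASP.

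The number of arrays, 3 per pool, limits the precision. The smallest two-sided p of an exact permutation test on 3 against 3 arrays is 0.1, and no such test was made. Same-numbered ASP+CGP and CON arrays had correlated deviations (0.170, 0.256 and 0.541), which is from the data and not from the labels, and some arrays of different numbers did as well (0.421 for the first ASP+CGP and the second CON array, 0.253 for the second and the first); a fit with these pairs as a block was added after seeing this. The steps were tested on simulated data.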

Additional observations from a re-analysis of the deposited data

Results flagged for a closer look

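For Adh1 the difference between pools with and without ASP was not the same with CGP as without it. The difference of ASP from CON was 3.32 on the log2 scale, while ASP+CGP differed from CGP by -0.23. The test of the interaction gave -3.54 ± 0.08 (adjusted p = 1.9e-12, limma).

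For Cyp2e1 the pools differed in the same way. ASP exceeded CON by 3.79, ASP+CGP differed from CGP by -0.17, and the interaction was -3.97 ± 0.09 (adjusted p = 1.0e-12, limma). Both results rest on 1 pool per group. Single arrays were not tested as outliers, since groups of 3 are too small for that.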

How the results depend on the processing

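Of 42 differences (7 members in 6 comparisons), 6 were called, and all 6 kept their direction and their call under each of 21 to 24 alternatives: other signal filters, probe set rules, normalizations, tests, adjustments, a replicate block and leaving out each array. Of the 36 uncalled differences, 34 kept their side of the threshold, and 18 changed sign in at least 1 alternative. The exceptions were both of Aldh2. The interaction of ASP and CGP in Aldh2, -0.52 ± 0.16 (adjusted p = 0.10, limma), was called with the replicate block over all groups (-0.52 ± 0.13, adjusted p = 0.043), and ASP+CGP vs ASP was called without the first or second ASP+CGP array (range of leaving out an array -0.54 to -0.26). Only in ASP+CGP vs CON did all same-numbered arrays deviate together, and the block in the fit of those arrays alone changed no call of a member.

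Without the fold threshold, at adjusted p alone, the number of genes called was 702 instead of 180 in ASP vs CON, 300 instead of 31 in ASP+CGP vs CON, 108 instead of 19 in CGP vs CON, 1189 instead of 219 in ASP+CGP vs ASP, 168 instead of 28 in ASP+CGP vs CGP and 690 instead of 257 in the interaction. The cause is the construction of that alternative, which drops 1 of 2 conditions. With it, 502 genes were higher and 200 lower in ASP vs CON, against 175 and 5 with the fold threshold, and 459 were higher and 730 lower in ASP+CGP vs ASP, against 6 and 213. Signals near the floor, as for Adh7 and for Cyp2e1 outside ASP, limit what a difference can show.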
